A study of Mus musculus with 8 samples.

Results

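A set of 6 genes that restrain messenger RNA stability or cell growth were followed in mouse B cells: Zfp36, Zfp36l1 and Zfp36l2 of the Zfp36 family, and Btg1, Btg2 and Tob1 of the BTG/TOB family. They were chosen by name, as every probe set whose platform symbol was one of the 6 genes, which gave 9 of the 12422 probe sets that are not controls and 6 of the 8251 genes that have a probe set of their own. RNA of FO (follicular) B cells had been labelled and hybridised to 8 single-colour arrays, 2 for each of 4 groups. The cells carried an antigen receptor against hen egg lysozyme (HEL). It was either the ordinary IgM form or a chimera named IgMG, an IgM whose spacer outside the membrane, membrane-spanning part and tail inside the cell come from IgG1. Cells of each form were either unstimulated or HEL-stimulated. Stimulation time, antigen dose, mouse strain and age are not stated in the labels used here. Every array measured a pool of cells from several mice and 1 to 3 sorts. Pools of IgM cells came from 2 or 4 mice, and pools of IgMG cells from 5 to 8, so pool size and receptor cannot be told apart.

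Zfp36 (tristetraprolin), Zfp36l1 and Zfp36l2 are zinc finger proteins that bind AU-rich elements in messenger RNAs and bring in the CCR4-NOT complex, which shortens the poly(A) tail and so starts decay. Zfp36 is an immediate-early gene in many cell types, its protein is held inactive by the p38 and MK2 kinases, and Zfp36l1 and Zfp36l2 are known to limit proliferation during B cell development. Btg1, Btg2 and Tob1 bind the deadenylase subunits Cnot7 and Cnot8 of the same complex, and slow the cell cycle when overexpressed. Btg1 and Btg2 are abundant in resting lymphocytes, where they are linked to quiescence.

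Of these genes, 3 rose with antigen whichever receptor the cells carried: Zfp36, Zfp36l1 and Btg1. Their paralogs Zfp36l2, Btg2 and Tob1 did not pass the test in either kind of cell. Of the 7 member probe sets bright enough to be tested, 3 rose and 0 fell in IgM cells, and 3 rose and 0 fell in IgMG cells. Over all 7453 tested probe sets, 6.70% rose and 7.31% fell in IgM cells, and 3.23% rose and 2.42% fell in IgMG cells, at an adjusted p under 0.05 in limma. The median log2 change of the 7 member probe sets was -0.32 in IgM and 0.16 in IgMG cells, against -0.02 and -0.05 over all tested probe sets. The other 2 member probe sets, 93943_f_at for Zfp36l2 and 161567_r_at for Tob1, had mean signals of 3.01 and 2.23 over the 8 arrays and were too dim to test.

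Before the values, 2 arrays need naming, because they stand apart. The second HEL-stimulated IgM array had a Gapdh 5'/3' control ratio of 0.755, where the others had 0.140 to 0.395. On the second unstimulated IgMG array the summed signal of 13 myeloid markers was 13216, against 1174.5 to 5294 on the other arrays, and that of 7 NK cell markers with a probe set was 2236, against 227 to 574. S100a8 (5339) and S100a9 (4097) were the largest parts of that myeloid sum. Lyz2, Itgam, Cd68, Csf3r and Mpo were also highest on that array. Cd14, C1qa, C1qb, Csf1r and Adgre1 were instead highest on the first HEL-stimulated IgMG array, with Cd14 at 1005 there against 191 on the second unstimulated one. The 9 B cell markers with a probe set summed to between 30328 and 39142 on every array, and 8 T cell markers to between 51.8 and 173.1, with Cd3e, part of the T cell receptor complex, at 6.70 to 11.6. The 5 marginal zone markers with a probe set summed to 5480 to 8230, and 6 erythroid markers to 13225 to 21325. Haemoglobin alpha (Hba-a1) had signals of 9595 to 16616, so erythroid RNA was present on every array. In pooled cells like these, fewer cells of a type and less RNA per cell cannot be told apart. Values without the 2 arrays that stand apart, and from a fit that holds the Gapdh ratio, are given below. Both of these fits kept the first HEL-stimulated IgMG array. The part of the myeloid and NK cell markers was not tested further.

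Zfp36 (92830_s_at) had the largest response of the 6 genes in both kinds of cell. In IgM cells its signal was 695.6 and 930.6 without antigen and 1858 and 1691.5 with HEL. In IgMG cells it was 689.2 and 639.2 without antigen and 1909 and 1755 with HEL. All 4 stimulated arrays therefore lay above all 4 unstimulated ones, and the stimulated arrays of the 2 receptors overlapped. How many of all probe sets separate stimulated from unstimulated arrays was not counted, here or for the genes below. The log2 change was 1.12 ± 0.17 (SE, n = 2 against 2 arrays) in IgM cells, which is 2.18-fold, with an adjusted p = 0.00384 in limma. In IgMG cells it was 1.44 ± 0.17, or 2.72-fold, with an adjusted p = 0.00277. Log2 changes here are of the signal plus 16, and the adjusted p-values are Benjamini-Hochberg values over all tested probe sets. The s in the probe set's name marks probes that can match more than 1 transcript.

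Zfp36l1 (93324_at), which like Zfp36l2 is known to limit proliferation during B cell development, rose as well. Its signal was 1470 and 1472 in unstimulated IgM cells and 3080 and 2219 with HEL, and it was 1018 and 1220 in unstimulated IgMG cells and 3182 and 2297 with HEL. No stimulated array overlapped an unstimulated one, but the stimulated arrays of experiment 1 lay well above those of experiment 2 under both receptors. The log2 change was 0.82 ± 0.21 (SE) in IgM cells, with an adjusted p = 0.0322 in limma, and 1.27 ± 0.21 in IgMG cells, with an adjusted p = 0.0129.

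Btg1 (93104_at) rose by less, and to nearly the same level. It had signals of 1744 and 1857 in unstimulated IgM cells and 2470 and 2946 with HEL, and of 1741 and 1768 in unstimulated IgMG cells and 2771 and 2723 with HEL. Again all stimulated arrays were above all unstimulated ones. The log2 change was 0.58 ± 0.14 (SE) in IgM and 0.64 ± 0.14 in IgMG cells, or 1.49-fold and 1.56-fold, with adjusted p-values of 0.0239 and 0.0304 in limma.

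**Figure D1:**
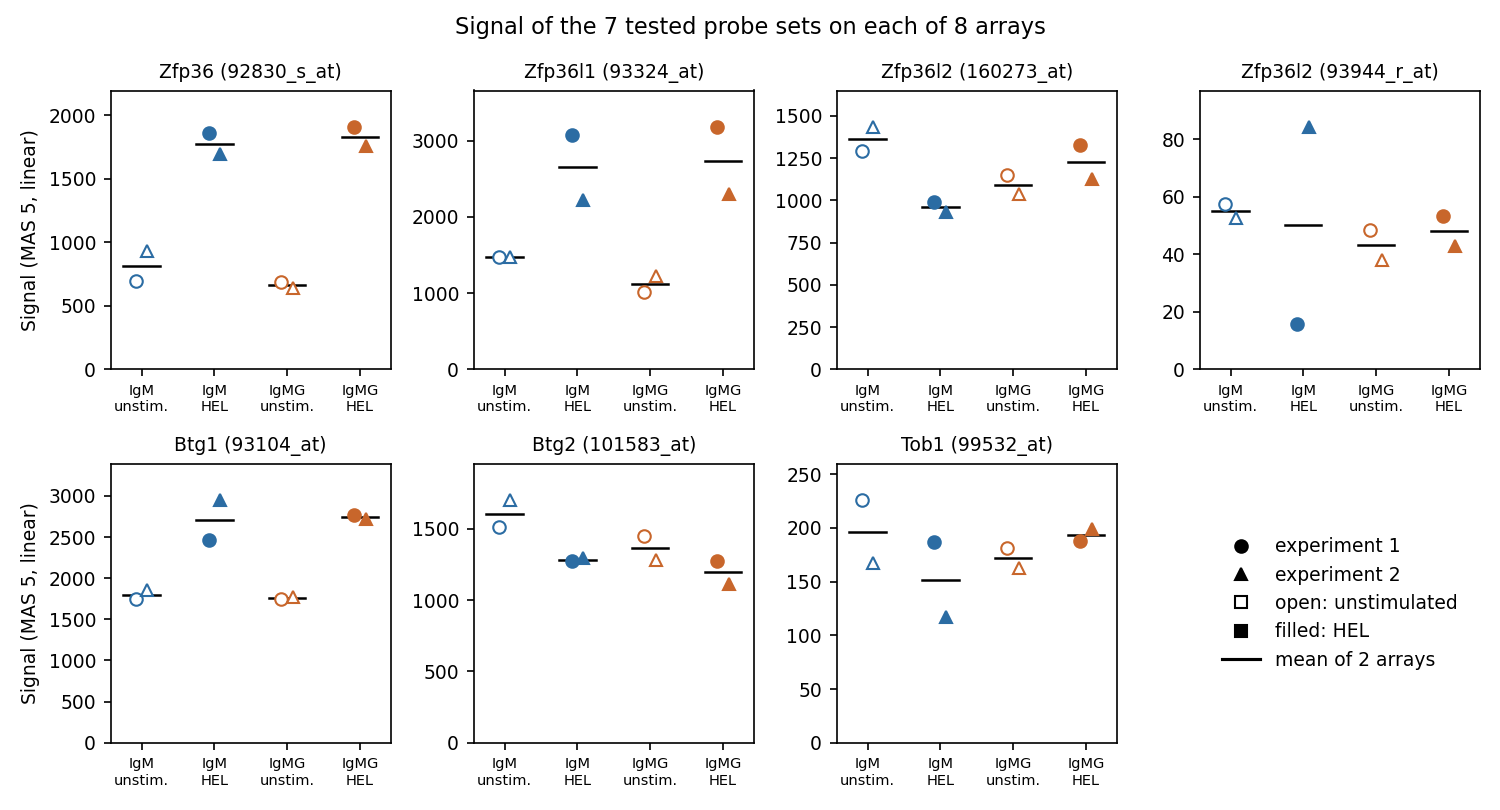
Signal on a linear scale (MAS 5) of the 7 tested probe sets, with 1 point per array, circles for experiment 1 and triangles for experiment 2, open for unstimulated and filled for HEL, and a bar at the mean of 2 arrays. Zfp36, Zfp36l1 and Btg1 stand higher on all 4 HEL arrays than on all 4 unstimulated arrays, while Zfp36l2 (160273_at), Btg2 and Tob1, which did not pass the test under either receptor, do not separate in this way.

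The stretch of 250 bases before the start of the gene is shown for the 3 genes that rose and for Btg2, which did not pass the test. The sequences are from RefSeq on GRCm38.p6, which held a window for 5 of the 6 genes, and they run 5′ to 3′ on the gene's own strand, ending at the base before the start. Capitals mark matches to a search of both strands for the CArG box of serum response factor (CC, then 6 bases that are A or T, then GG), the cyclic AMP response element (CRE, TGACGTCA) and its shorter core TGACG, the EGR sites GCGTGGGCG and GCGGGGGCG, the NF-kB consensus, the AP-1 sites TGAGTCA and TGACTCA, the FoxO sites TGTTTAC and TGTTTAT, and the TATA box TATAAA. The full CRE contains the core on both strands. Zfp36 lies at chr7:28379229-28379478 (minus strand), Zfp36l1 at chr12:80113014-80113263 (minus), Btg1 at chr10:96616751-96617000 (plus) and Btg2 at chr1:134079156-134079405 (minus).
Zfp36: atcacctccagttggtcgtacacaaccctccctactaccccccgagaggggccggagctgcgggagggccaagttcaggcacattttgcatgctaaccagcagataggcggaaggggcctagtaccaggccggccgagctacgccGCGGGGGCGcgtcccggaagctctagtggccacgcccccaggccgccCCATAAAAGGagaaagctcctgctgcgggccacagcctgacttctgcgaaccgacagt
Zfp36l1: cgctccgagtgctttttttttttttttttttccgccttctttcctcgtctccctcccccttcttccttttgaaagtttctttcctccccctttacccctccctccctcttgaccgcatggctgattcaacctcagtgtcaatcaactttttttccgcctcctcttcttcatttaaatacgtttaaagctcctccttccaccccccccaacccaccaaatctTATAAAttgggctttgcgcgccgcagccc
Btg1: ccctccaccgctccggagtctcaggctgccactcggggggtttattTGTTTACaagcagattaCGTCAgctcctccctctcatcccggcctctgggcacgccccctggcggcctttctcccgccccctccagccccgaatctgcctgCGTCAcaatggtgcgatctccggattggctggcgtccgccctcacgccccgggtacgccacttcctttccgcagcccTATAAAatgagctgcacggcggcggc
Btg2: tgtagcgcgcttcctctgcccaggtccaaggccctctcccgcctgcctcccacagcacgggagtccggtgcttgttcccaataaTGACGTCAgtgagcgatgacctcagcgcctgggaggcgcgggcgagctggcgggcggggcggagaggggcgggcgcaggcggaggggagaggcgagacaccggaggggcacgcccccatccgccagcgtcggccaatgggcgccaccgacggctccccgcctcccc

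The Zfp36 window held a CArG box, CCATAAAAGG, beginning 58 bases before the start, and an EGR site beginning 105 bases before it. Of 32851 RefSeq windows of this length, 1.47% held a CArG box and 3.06% an EGR site. The Zfp36l1 window held a TATA box and no other searched motif. The Btg1 window held a TATA box, a FoxO site and 2 CRE cores, and that of Btg2 a full CRE. The window of Tob1, which did not pass the test and is not printed, held a TATA box and a CRE core. Neither motif was thus limited to the genes that rose. Among all windows 12.4% held a TATA box, 7.10% a FoxO site, 17.8% a CRE core and 1.55% a full CRE. In none of the 5 windows was an NF-kB or AP-1 match found, which 3.90% and 4.46% of all windows held. The 3 genes that rose thus had no searched motif in common. These are matches of letters, not shown to be bound.

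Zfp36l2, the third family member, did not pass the test under either receptor. Its bright probe set 160273_at had signals of 1294 and 1434 in unstimulated IgM cells and 991.5 and 930.4 with HEL. In IgMG cells the signals were 1149 and 1036.5 without antigen and 1328 and 1127.5 with HEL. Under IgM both stimulated arrays were below both unstimulated ones, and under IgMG the groups overlapped. The log2 change was -0.50 ± 0.15 (SE) in IgM cells, with an adjusted p = 0.0587 in limma, just short of the threshold, and 0.16 ± 0.15 in IgMG cells, with an adjusted p = 0.583. With quantile normalization or with the brightest 40% of probe sets tested, the IgM value passed, at adjusted p = 0.0481 and adjusted p = 0.0474. With the 3 probe sets of Zfp36l2 averaged, it was -0.26, with an adjusted p = 0.448. That average weighs the dim 93943_f_at and 93944_r_at (mean signals of 3.01 and 49.1) equally with the bright one. It is therefore no check of the bright probe set alone. The dim second probe set, 93944_r_at, had 15.9 and 84.4 on the 2 stimulated IgM arrays and gave no direction.

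Btg2, a p53 target and antiproliferative gene, had signals of 1510 and 1699 in unstimulated and 1272 and 1295 in HEL-stimulated IgM cells. Under IgMG it had 1448.5 and 1277 without and 1275 and 1113 with antigen. Stimulated arrays lay below unstimulated ones under each receptor, by only 2 signal units at the closest under IgMG. The log2 changes of -0.32 ± 0.15 (SE) in IgM and -0.19 ± 0.15 in IgMG cells missed the threshold in limma, with an adjusted p = 0.196 and an adjusted p = 0.509. The 95% intervals ran from -0.65 to 0.02 and from -0.52 to 0.14, so a fall of more than 0.65 on the log2 scale lay outside both.

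Tob1, which slows entry into the cell cycle, was the dimmest of the 6 genes relative to all probe sets, with 74.7% of them dimmer. Its probe set 99532_at had signals of 225.7 and 167.4 in unstimulated and 186.5 and 117.3 in stimulated IgM cells, which overlapped. In IgMG cells it had 181.7 and 162.5 without and 188.0 and 199.3 with HEL, which did not. The log2 changes were -0.36 ± 0.24 (SE) and 0.16 ± 0.24, with adjusted p = 0.366 and adjusted p = 0.761 in limma.

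The responses were then compared between the receptors, which is the question named in the study's design. None of the 7 member probe sets differed past the threshold in limma, and 0% of all 7453 did. At an unadjusted p under 0.05 there was 1 member probe set and 753 of all. Zfp36l2 (160273_at) had the largest difference of log2 changes relative to its error, 0.66 ± 0.21 (SE) higher in IgMG, with a 95% interval of 0.18 to 1.14 and an adjusted p = 0.412. Averaging its probe sets, with the dim ones at equal weight, gave 0.33, with an adjusted p = 0.734 in limma. For Zfp36 the difference was 0.32 ± 0.24 (interval -0.23 to 0.86, adjusted p = 0.653 in limma) and for Zfp36l1 it was 0.44 ± 0.29 (-0.22 to 1.11, adjusted p = 0.602). For Btg1 the difference was 0.06 ± 0.19, with an interval of -0.37 to 0.50, the narrowest of the 7. For Btg2 it was 0.13 ± 0.21 (-0.34 to 0.60) and for Tob1 0.52 ± 0.34 (-0.25 to 1.28), with adjusted p-values of 0.859 and 0.595 in limma. These intervals do not show that the receptors act alike: for Zfp36l1, for example, the upper end of 1.11 exceeds its whole response in IgM cells, 0.82.

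**Figure D2:**
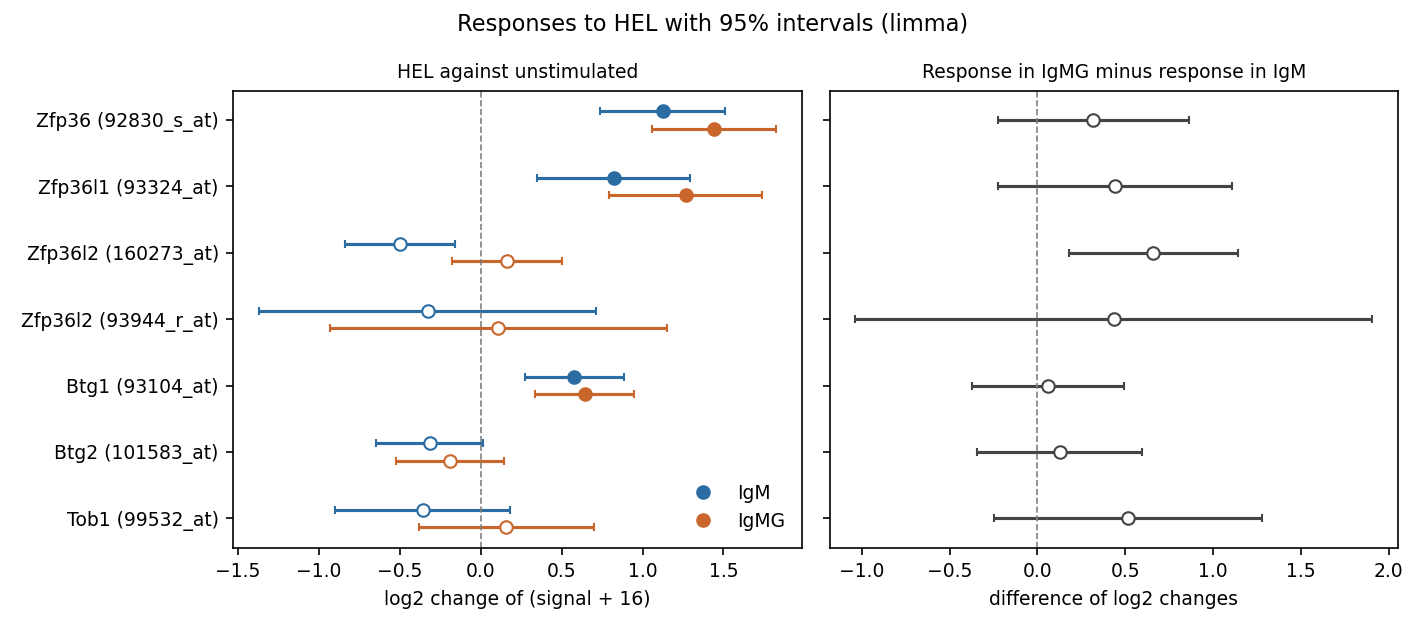
Left, log2 change of (signal + 16) with HEL for the 7 tested probe sets in IgM (blue) and IgMG cells (orange); right, the response in IgMG minus that in IgM; bars are 95% intervals from limma, and filled points passed an adjusted p of 0.05. Zfp36, Zfp36l1 and Btg1 are filled under both receptors, and on the right the interval of Zfp36l2 (160273_at), 0.18 to 1.14, is the one that leaves out 0.

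The same values can be read between receptors at each state. Without antigen all 7 member probe sets, with Zfp36l2 counted by both its tested ones, had lower fitted values in IgMG cells. The share of all probe sets with a lower fitted value was not counted, and their median difference was 0.0085. For Btg1 and Tob1 the sign changed in some fits with 1 array left out. In 5 of the 7 both IgMG arrays were below both IgM arrays, which held for 15.1% of all tested probe sets. The largest log2 difference was -0.40 ± 0.21 (SE) for Zfp36l1, and Zfp36l2 (160273_at) had -0.32 ± 0.15 and Zfp36 -0.27 ± 0.17. None passed in limma (adjusted p = 0.995 for each), nor did any other probe set (0%), and 0 of the 7 and 343 of all had an unadjusted p under 0.05. With HEL, Zfp36, Zfp36l1 and Btg1 had differences between the receptors of 0.05 ± 0.17, 0.05 ± 0.21 and 0.03 ± 0.14, each smaller than its error. Zfp36l2 (160273_at) was 0.34 ± 0.15 higher in IgMG, with no overlap and an adjusted p = 0.353 in limma. Tob1 was 0.35 ± 0.24 higher, also with no overlap (adjusted p = 0.539 in limma). Btg2 had -0.11 ± 0.15, with overlap. The share of all probe sets without overlap was not counted for this comparison. None of the members passed, and 0.0134% of all probe sets did. The comparisons without antigen, with HEL and of the responses share arrays and are not independent of each other.

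Leaving out 1 array at a time left Zfp36 past the threshold in all 8 fits under each receptor, with log2 changes of 0.92 to 1.33 in IgM and 1.38 to 1.5 in IgMG cells. In such fits a lone array is assumed to vary like the other groups. The Zfp36l1 call in IgM cells was lost without either unstimulated IgM array or without the first stimulated one, where the log2 change fell to 0.59 with an adjusted p = 0.136 in limma. In IgMG cells it was lost without the first stimulated IgMG array (1.03, adjusted p = 0.0907). The Btg1 change stayed between 0.45 and 0.71 in IgM and between 0.63 and 0.65 in IgMG cells, but its call was lost without 5 of the 8 arrays in IgM cells and without 6 of 8 in IgMG cells, with an adjusted p of up to 0.137 and up to 0.193. Those arrays were both unstimulated IgM and both stimulated IgMG arrays for either call, with the second stimulated IgM array for the call in IgM cells and both unstimulated IgMG arrays for that in IgMG cells.

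Other settings also ended calls of Btg1 and Zfp36l1, with log2 changes that moved little. For Btg1 in IgM cells, median centring gave an adjusted p = 0.0511 in limma and a fit with no trend 0.0711. For Btg1 in IgMG cells, limma gave an adjusted p = 0.0620 with no filter, 0.0915 with no trend and 0.0678 with only the arrays compared. For Zfp36l1 in IgM cells it gave an adjusted p = 0.0598 with no filter and 0.0677 with no trend.

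Without the 2 arrays that stand apart, 2 member probe sets rose in IgM cells (Zfp36 by 1.19 and Zfp36l1 by 1.06 on the log2 scale), and 3 rose in IgMG cells (Zfp36 by 1.39, Zfp36l1 by 1.40 and Btg1 by 0.65). Btg1 in IgM cells then had a log2 change of 0.45 and an adjusted p = 0.108 in limma. When the model also held the Gapdh ratio, Zfp36 alone of the members passed under each receptor, while Zfp36l1 had log2 changes of 0.84 and 1.25 with an adjusted p = 0.0841 and an adjusted p = 0.0569 in IgM and IgMG cells, and Btg1 had 0.51 and 0.73 with an adjusted p = 0.0714 and an adjusted p = 0.0526 in limma.

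**Figure D3:**
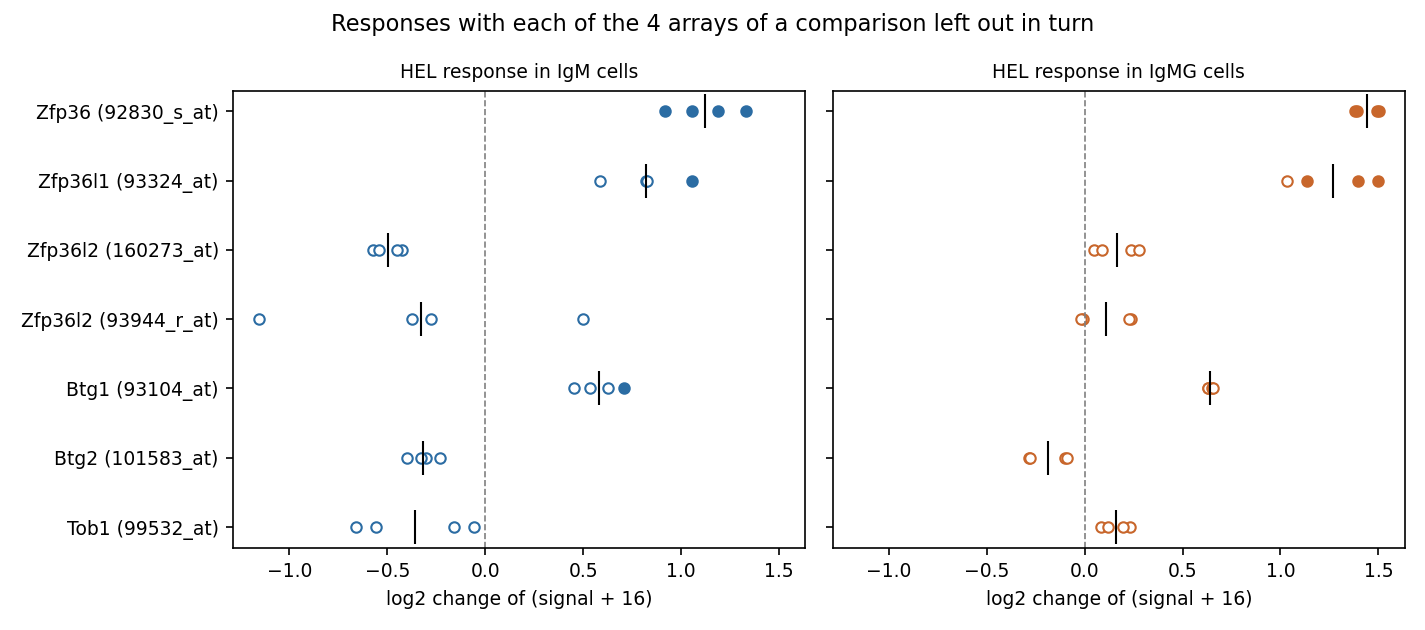
Log2 change with HEL of each tested probe set when each of the 4 arrays of that comparison is left out in turn (points; filled where the adjusted p in limma stayed under 0.05), with the value from all 8 arrays as a vertical line. Zfp36 stays filled throughout, from 0.92 to 1.33 under IgM and 1.38 to 1.5 under IgMG, while the points of Btg1 under IgMG sit close together at 0.63 to 0.65 yet are open.

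The 6 genes were also compared with each other over the 8 arrays, as a description, since the arrays share groups. Zfp36 followed Zfp36l1 with a Pearson r = 0.94 and Btg1 with r = 0.96, and Zfp36l1 followed Btg1 with r = 0.87. Zfp36l2 (160273_at) had r = 0.60 with Btg2 and 0.54 with Tob1, and between -0.37 and -0.16 with the 3 genes that rose. Within the families, Btg1 and Btg2 had r = -0.67, and Zfp36 and Zfp36l2 r = -0.25.

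Of the 5602 other genes with a tested probe set, those most like Zfp36 over the 8 arrays were Sc5d, Cd180 and Cd83, each with a Pearson r = 0.99. Those most like Btg1 were Prpf38a, Mtdh and Hsp90aa1 (each r = 0.98), and those most like Zfp36l1 were Kpna2, Cd53 and Bysl (each r = 0.97). Zfp36l2 was most like Hibadh (r = 0.96), Slc39a9 (0.93) and Smarcd2 (0.93). Btg2 was most like St6gal1 (0.95) and the interferon-induced genes Ifi47 (0.94) and Ifit2 (0.92). Tob1 was most like Plk1 (0.98), Rnasek (0.96) and Pmpca (0.96).

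Genes for the decay machinery that these proteins recruit were also followed. Among 12 tested deadenylation genes, IgM cells had 1 that rose and 0 that fell, and IgMG cells had 1 of each. Over all probe sets 6.70% rose and 7.31% fell in IgM cells, and 3.23% rose and 2.42% fell in IgMG cells. Counts of 0 or 1 in lists of this size, here and for decapping below, therefore do not set the lists apart. The gene that rose under both receptors was Cnot8, a deadenylase subunit that BTG and TOB proteins bind. Its mean signal went from 150 ± 9.05 to 669 ± 284 (SD, n = 2 each) in IgM and from 141 ± 18.7 to 352 ± 52.1 in IgMG cells. Its log2 changes were 1.98 ± 0.27 (SE) and 1.23 ± 0.27, with adjusted p-values of 0.00251 and 0.0388 in limma. Parn, a poly(A)-specific ribonuclease, fell by 0.74 ± 0.18 in IgMG cells, only just past the threshold (adjusted p = 0.0494 in limma). In IgM cells Parn had a log2 change of 0.07 ± 0.18. Cnot7, the other deadenylase subunit that BTG and TOB proteins bind, had log2 changes of 0.85 and 0.23 in IgM and IgMG cells and did not pass. Of 15 decapping and exonuclease genes, 1 rose in IgM cells (Lsm2, by 1.04 ± 0.25) and 0 in IgMG cells, and 0 fell. Their medians were -0.04 and -0.10, close to those of all probe sets.

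Among 13 other RNA-binding proteins that act on stability, 0 passed in IgM cells and 3 rose in IgMG cells. Over all probe sets 6.70% rose in IgM and 3.23% in IgMG cells. At an unadjusted p under 0.05 in limma there were 0 of the 13 in IgM and 6 in IgMG cells, against 2138 and 1660 of all 7453. The 3 that rose were Ago2, the slicing protein of microRNA silencing, by 1.61 ± 0.25, Hnrnpd (AUF1), another binder of AU-rich elements, by 0.71 ± 0.17, and Ybx1 by 0.60 ± 0.11. The differences of these responses between receptors did not pass in limma (adjusted p = 0.414 for Ago2, 0.412 for Hnrnpd and 0.452 for Ybx1). Ago2 had nearly the same mean signal with HEL under both receptors, 784 in IgM and 785 in IgMG cells. Without antigen it had 539 ± 5.87 and 259 ± 113 (SD, n = 2 each). The rise of Hnrnpd passed only narrowly, with an adjusted p = 0.0487 in limma. Listed genes were not followed under other settings. Of 13 p38, MK2 and 14-3-3 genes, Mapk14, which encodes p38 alpha, the kinase upstream of Zfp36 inactivation, was the one that passed. It fell from a mean signal of 669 ± 70.8 to 223 ± 74.4 in IgM and from 755 ± 140 to 311 ± 19.6 in IgMG cells (SD, n = 2 each), log2 changes of -1.55 ± 0.24 and -1.23 ± 0.24 (SE) with adjusted p-values of 0.00397 and 0.0233 in limma. Mapkapk2, which encodes MK2, had log2 changes of 0.44 and -0.29 and did not pass. Of the other BTG/TOB and Zfp36 relatives with the BTG-binding methyltransferase Prmt1, Prmt1 alone was tested, and it missed the threshold under both receptors (log2 changes of -0.85 ± 0.47 and -0.41 ± 0.47).

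Some transcripts described as targets of Zfp36 proteins rose with antigen. Of 25 with a probe set, 14 were bright enough to be tested, by their mean over all 8 arrays, stimulated ones included. Among these 14, 5 rose and 2 fell in IgM cells, and 4 rose and 0 fell in IgMG cells. Over all probe sets 6.70% and 7.31% did so in IgM and 3.23% and 2.42% in IgMG cells. The median log2 change of the 14 was -0.06 in IgM cells, below 0 although more of them rose than fell, and 0.45 in IgMG cells. Myc rose by 3.69 ± 0.22 and 3.54 ± 0.22, Tnf by 1.92 ± 0.23 and 1.42 ± 0.23, and Fos by 1.36 ± 0.33 and 1.59 ± 0.33 on the log2 scale in IgM and IgMG cells. The cytokine gene Ccl3 rose by 4.36 ± 0.32 in IgM and by 1.49 ± 0.32 in IgMG cells. That difference of -2.87 ± 0.46 did not pass (adjusted p = 0.374 in limma). Its mean signal without antigen was only 11.6 in IgM and 33.85 in IgMG cells, against 544 and 117 with HEL. Ccl3 thus passed the brightness filter through its HEL arrays, so its rise is not independent of that filter. Dusp1 rose in IgM cells. The 2 that fell in IgM cells were Mcl1, by 0.92 ± 0.14, and the cyclin gene Ccnd3, by 0.81 ± 0.23. The fits of these genes measured RNA levels, not RNA decay.

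Of other growth-restraining genes, several fell in IgM cells. The 17 tested CDK inhibitor, p53 target and growth arrest genes included 1 that rose and 4 that fell in IgM cells, and 0 and 1 in IgMG cells, with medians of -0.79 and -0.43. Over all probe sets 7.31% fell in IgM and 2.42% in IgMG cells, so that the single gene of 17 in IgMG cells is near that share. Cdkn2d, an inhibitor of CDK4 and CDK6, fell by 1.37 ± 0.28 in IgM and by 1.41 ± 0.28 in IgMG cells. The p53 target Sesn1 fell by 2.25 ± 0.31 and Ccng2 by 1.02 ± 0.17 in IgM cells, and had log2 changes of -0.92 ± 0.31 and -0.22 ± 0.17 in IgMG cells that missed the threshold (adjusted p = 0.121 and adjusted p = 0.497 in limma). Gadd45a fell in IgM cells as well, and Gadd45b rose there by 1.31 ± 0.28. Of 9 G1 cyclin, CDK and E2F genes, 1 rose (Cdk4, by 0.78 ± 0.17) and 2 fell (Ccne1, by 0.78 ± 0.21, and Ccnd3) in IgM cells, and Ccne1 fell by 0.88 ± 0.21 in IgMG cells.

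**Figure D4:**
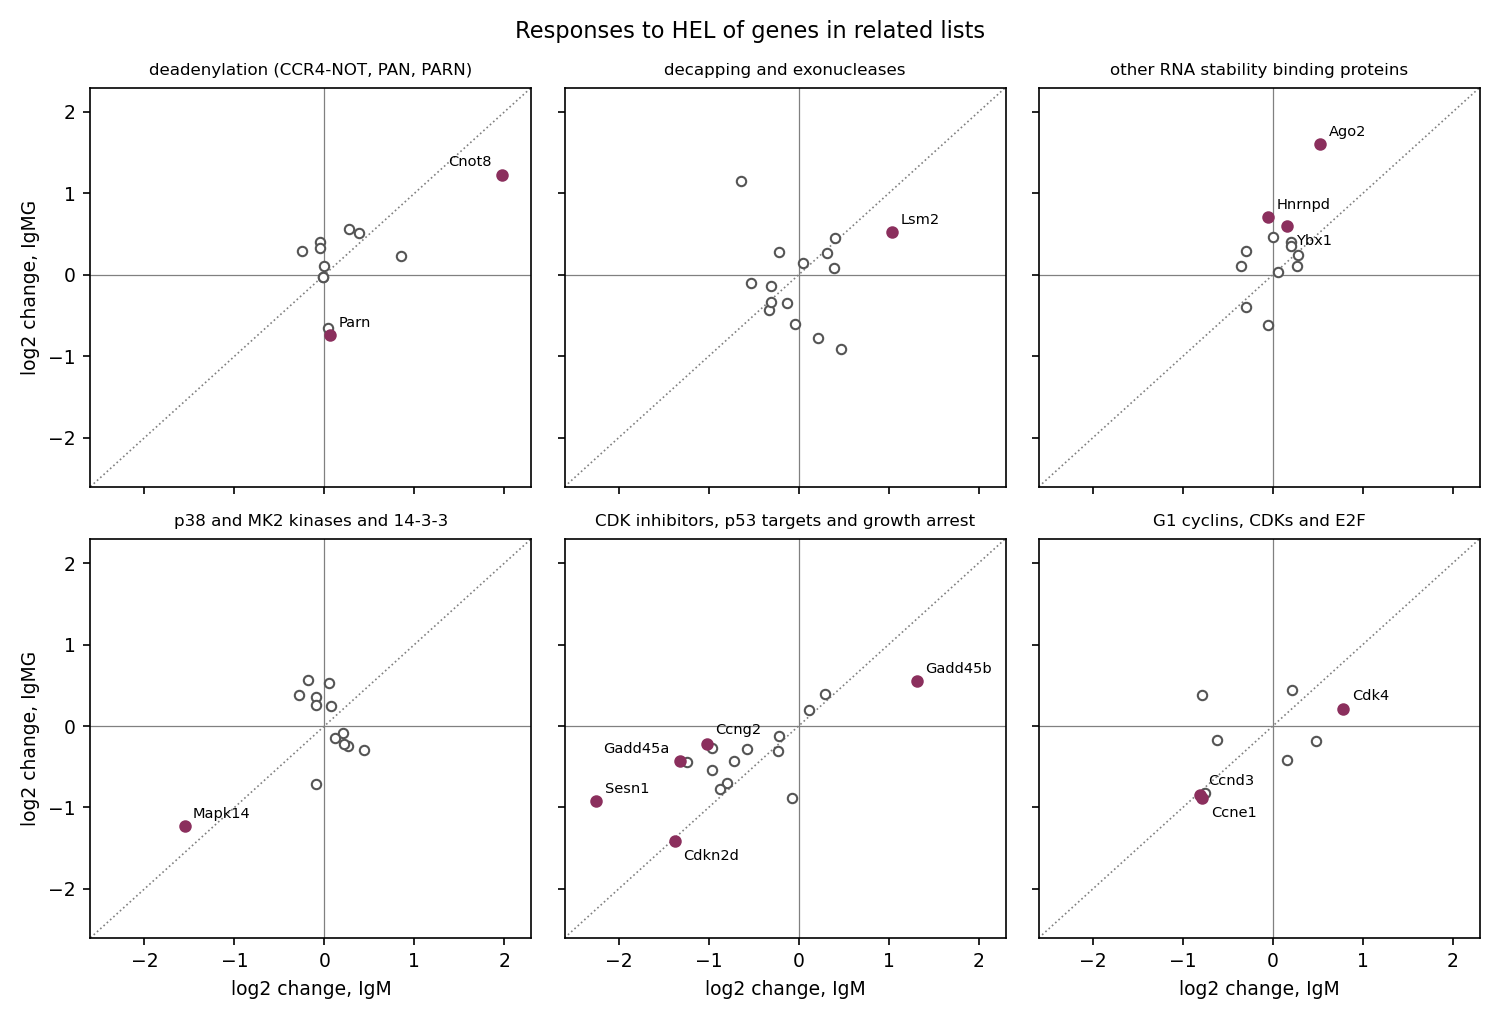
Log2 change of (signal + 16) with HEL in IgM cells (horizontal) and IgMG cells (vertical) for the tested genes of 6 related lists, 1 point per gene; filled, named points passed an adjusted p of 0.05 in limma in at least 1 receptor, and the dotted line marks equal change. Cnot8 at 1.98 and 1.23 and Mapk14 at -1.55 and -1.23 stand far from the other members of their lists.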

How the data were processed

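The measurements are signals of 8 arrays, in the deposited table of the authors, as a linear intensity for each probe set. Per the submitters' processing notes, MAS 5 produced them. The trimmed mean (2% off each end) was near 150.0 on every array, so equal total signal is assumed. Of 12488 probe sets, 66 controls were dropped, and the brightest 60% by mean (7453, lowest mean 24.5) were tested. Symbols are those of the 2016 platform annotation.

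The scale was log2(signal + 16). limma 3.58.1 (R 4.3.3) fitted 1 mean per group over all arrays, with eBayes and a trend. Tests were two-sided, and p-values were adjusted by Benjamini-Hochberg over all tested probe sets, with a threshold of 0.05. Residual degrees of freedom were 4, and the prior added 4.87. With 2 arrays against 2, permutation could not give an exact p under 0.333. No label says that arrays are separate cultures, so p-values measure the spread between arrays. Errors on log2 changes are SEs of the fit. The fit was tested on simulated data.

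The members, gene lists and tests were chosen with earlier results of these data known. Named were all member probe sets, up to 4 genes per list past the threshold in any comparison (by mean rank of adjusted p over both responses), and the 3 genes most like each member. Cnot7, Mapkapk2, Dusp1, Mcl1, Gadd45a and Prmt1 were named after their values were seen. A listed gene is given by its brightest probe set. Alternatives varied the offset, scaling, filter, moderation, threshold, averaging of probe sets and arrays used, and added a block by replicate. After the data were seen, a Gapdh covariate, a fit without both of the arrays named as standing apart, and a crossed pairing were added. Plots were made in matplotlib 3.10.9 (Python 3.11.15).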

Additional observations from a re-analysis of the deposited data

Results flagged for a closer look

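For Zfp36l2 (160273_at) both HEL arrays lay below the unstimulated mean in IgM cells and above it in IgMG cells. The difference of responses was 0.66 on the log2 scale, and its test in limma missed the threshold, with an adjusted p = 0.412 and a range of 0.242 to 0.923 over the alternatives. Tob1 (99532_at) showed the same opposite directions, at 0.52, though its IgM groups overlapped. For it limma gave an adjusted p = 0.595 (0.278 to 0.995 over the alternatives). The share of all probe sets with such opposite directions was not counted, so the pattern cannot be called particular to these genes. Both differences rest on the arrays of all 4 groups, and the stimulated IgM arrays include the one with the highest Gapdh 5'/3' ratio. Without that array the difference was 0.62 for Zfp36l2 and 0.21 for Tob1.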

How the results depend on the processing

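The count of member probe sets past the threshold stayed at 0 in the difference of responses, in the unstimulated comparison and in the stimulated comparison under every alternative run for them (25, 28 and 27). For the response in IgM cells it stayed within 1.5 times the 3 reported under 21 of 27 alternatives, and for that in IgMG cells under 24 of 27. In IgM cells the count was 1 with no trend, with an adjusted p of 0.01, with a 2-fold rule without a test and with the Gapdh covariate. In IgMG cells it was 1 with an adjusted p of 0.01 and with the Gapdh covariate. Leaving out 1 array at a time gave 1 to 3 in each. The cause of these losses was not tested, except that the adjusted p of 0.01 is stricter by construction and each left-out array leaves fewer data.

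Experiment numbers did not pair the arrays: deviations of same-numbered arrays correlated between -0.16 and 0.02 over the 6 pairs of groups. With the replicate block, 3 member probe sets passed in IgM and 2 in IgMG cells, where Btg1 had an adjusted p = 0.0506 in limma. With the pairing crossed in the unstimulated comparison 0 of all probe sets passed.

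Of 928 member values under alternatives, 868 kept direction and side, 35 lost and 3 gained a call, and 22 changed sign, none of them a call. With HEL, the difference between receptors of Zfp36l1 was -0.0057 with quantile normalization and -0.19 without both arrays that stand apart, that of Btg1 -0.0086 with equal sums, and that of Zfp36 -0.16 with the Gapdh covariate and -0.021 without both arrays, and that of Tob1 -0.024 with the covariate. The Tob1 response in IgMG cells was -0.015 with averaged probe sets and -0.042 with the covariate, and that of Zfp36l2 (93944_r_at) -0.018 without both arrays. Left-out arrays gave that probe set -1.15 to 0.50 in IgM cells, -0.018 to 0.24 in IgMG cells, -0.39 to 1.26 for their difference and -0.65 to 1.00 with HEL between receptors. They gave Btg1 -0.064 to 0.19 for the difference, -0.10 to 0.15 with HEL and -0.081 to 0.0090 without antigen, Zfp36 -0.021 to 0.11 and Zfp36l1 -0.19 to 0.28 with HEL, and Tob1 -0.36 to 0.035 without antigen. Over all probe sets, calls ranged from 339 to 1558 in IgM cells (1044 reported) and from 58 to 800 in IgMG cells (421 reported, 241 higher and 180 lower, or 235 and 101 with each array centred on its median), and reached 13 for the difference of responses without the first unstimulated IgMG array. With the 2-fold rule without a test, 94 passed without antigen and 217 with HEL (0 and 1 reported). The difference of responses was not run with only the arrays compared, since these are all 8, or with the 2-fold rule. Low signals limit the untested probe sets of Tob1 and Zfp36l2 and the dim tested one of Zfp36l2 (93944_r_at).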
